A study of Rattus norvegicus with 15 samples.

Results

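Collagen genes were followed in cultured rat brain microvascular endothelial cells (BMECs) that were left unexposed or exposed to x-rays. They were chosen by name, as every gene whose symbol is Col followed by a digit, together with assembled transcripts without a symbol in a locus that holds only that symbol. This gave 44 genes of 37367 gene sums, and 43 after leaving out Col4a3bp, which encodes a ceramide transfer protein and no collagen. Of the 43, 23 had a mean of at least 0.5 FPKM (fragments per kilobase of transcript, scaled to the mapped reads of the library) over the 15 libraries, namely 9 of 11 fibrillar collagens, 5 of 8 basement membrane collagens and 9 of 24 others. The other 20 lay below this level. Nearest to it were Col20a1, with a mean FPKM of 0.384 just below, and Col11a2, with 0.672 just above. Col13a1, Col25a1, Col6a5, Col7a1 and Col9a1 were listed at 0 in all 15 libraries.

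The cells were primary cultures from the cerebral microvessels of Sprague-Dawley rats (Spraque-Dawley in the labels), littermates 2 to 3 weeks old of both sexes, and no genetic change is named for any group. There were 5 groups with 3 biological replicates each: unexposed controls, and cells taken 12 h or 24 h after 5 Gy or 20 Gy of x-rays. All groups grew in the same endothelial medium with serum and growth supplement. The control label gives 12 h of culture, so at 24 h the x-ray exposure and the longer culture cannot be told apart. Every comparison with control uses the same 3 control libraries, and p-values measure the spread between these cultures.

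Collagens are the main structural proteins of the extracellular matrix, built of alpha chains wound into a triple helix. Fibrillar collagens (types I, III, V, XI and XXVII here) are secreted as procollagens, trimmed by proteases and assembled into tension-bearing fibrils. Type IV collagen forms the sheet of the basement membrane around brain capillaries, and type XVIII is a proteoglycan of the same layer whose end fragment is endostatin. Other collagens sit on fibril surfaces, form beaded filaments around cells (type VI) or form open networks (type VIII).

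The labelled cell type was checked against its markers. Of 14 endothelial markers, 12 were in the table and 10 of these stayed below 1 FPKM in every library. Cdh5 had a mean of 0.0763 FPKM and Cldn5 of 0.00429 FPKM, and Tie1 and Emcn were listed at 0 in all 15 libraries. Higher were Flt1, with a mean of 3.31 FPKM (1.16 to 5.48), and Ocln, with 1.78 FPKM (0.567 to 2.65). The summed FPKM of the endothelial list ranged from 3.01 to 8.93 over the libraries. The 10 fibroblast markers summed to 696 to 1046 FPKM, led by Fbln1 with a mean of 565 FPKM, although Dpt, Slc6a13 and Postn were at or near 0. Most endothelial markers in the table were thus below 1 FPKM in libraries that carry the endothelial label, while Flt1 and Ocln were detected at low levels. The fibroblast sum was 1039.8 to 1046 FPKM in control, 931 to 1027 and 868 to 973 in the 12 h groups, and 833 to 881 and 696 to 921 in the 24 h groups (5 Gy and 20 Gy). Of 7 fibroblast markers tested, Dcn and Lum (28.6%) passed the test used for the collagens on the lower side at 24 h with both doses, beside 20.8% (5 Gy) and 23.3% (20 Gy) of all genes tested. The sum of 10 mural cell markers was 92.2 to 100.5 FPKM in control, 76.4 to 85.2 and 77.9 to 94.6 at 12 h, and 47.3 to 59.1 and 40.8 to 68.1 at 24 h. Of 6 mural markers tested, Cspg4 and Pdgfrb were lower (33.3%) and Myh11 higher (16.7%, beside 20.5% and 17% of all genes) at 24 h with both doses. Their part in the collagen results was not tested. In these bulk samples fewer cells of a type and less RNA per cell cannot be told apart.

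Collagen mRNA was abundant in unexposed cells, stood at 84.4% (5 Gy) and 81.1% (20 Gy) of control by 12 h, and was several-fold lower by 24 h. The 23 collagens summed to 3148 ± 264 FPKM in control (SD, n = 3). At 12 h the sums were 2656 ± 59.7 FPKM for 5 Gy and 2554 ± 55.3 FPKM for 20 Gy. By 24 h they were 713 ± 46.1 and 659.6 ± 5.51 FPKM, or 22.6% and 21.0% of control. Fibrillar collagens went from 1858 ± 189 FPKM in control to 147 ± 21.5 FPKM (7.89%) in the 5 Gy 24 h group and 171 ± 39.0 FPKM (9.20%) in the 20 Gy 24 h group. Basement membrane collagens went from 405 ± 22.6 FPKM to 125 ± 4.74 FPKM (30.8%) and 91.3 ± 7.89 FPKM (22.6%). The other collagens went from 885 ± 59.9 FPKM to 441 ± 60.5 FPKM (49.9%) and 397 ± 49.4 FPKM (44.9%).

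The fibrillar class made up 57.7 to 60.1% of collagen FPKM in control. It made up 18.1 to 25.8% in the 5 Gy 24 h libraries and 21.3 to 32.9% in the 20 Gy 24 h libraries. The class of other collagens held a mean of 28.1% in control and of 61.7% and 60.2% in the same 24 h groups. No 24 h library overlapped a control library in any class sum or in the fibrillar share. At 12 h the fibrillar share was 57.8 to 62.1% (5 Gy) and 51.2 to 58.9% (20 Gy), overlapping the controls.

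**Figure D1:**
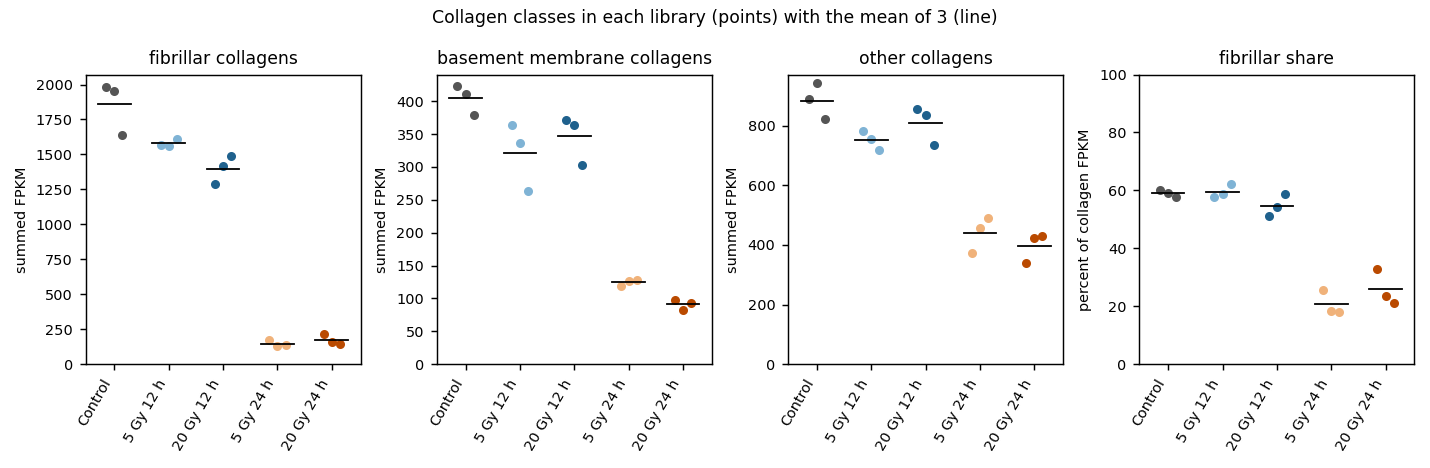
Summed FPKM of the fibrillar, basement membrane and other collagens and the fibrillar share of collagen FPKM in percent, by group. Each point is 1 library and each line the mean of 3, and the 24 h libraries lie below all control libraries, with a fibrillar share of 18.1 to 25.8% and 21.3 to 32.9% against 57.7 to 60.1% in control.

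Each gene was tested with limma on log2(FPKM + 1) in a fit of 17895 gene sums with a mean of at least 0.5 FPKM. A gene was called at an adjusted p (Benjamini-Hochberg over all of them) under 0.05 with a fold of at least 1.5 on this scale, which understates the change of low genes. In the 5 Gy 12 h group 0 of 23 collagens were called higher and 2 lower, beside 4.98% and 4.96% of all genes tested. In the 20 Gy 12 h group 1 was higher and 1 lower, beside 4.9% and 3.64%. With 8.70% lower for 5 Gy and 4.35% for 20 Gy, the collagens were near the background at 12 h. In the 5 Gy 24 h group 1 collagen was higher and 16 were lower (69.6% lower), beside 20.5% higher and 20.8% lower among all genes. In the 20 Gy 24 h group 0 were higher and 19 lower (82.6%), beside 17% higher and 23.3% lower. The median log2 fold change of the 23 collagens was -0.02 and -0.08 at 12 h and -1.29 and -1.66 at 24 h (5 Gy and 20 Gy), against 0.03, 0.01, -0.05 and -0.14 for all genes tested. All 3 libraries lay below all control libraries for 5 (5 Gy) and 4 (20 Gy) collagens at 12 h, and above them for 4 and 4. At 24 h they lay below for 18 and 19 collagens and above for 1 and 1. The share of all genes placed in this way was not counted.

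By class, 7 of 9 fibrillar collagens were lower at 24 h with either dose, with a median log2 fold change of -2.51 for 5 Gy and -2.39 for 20 Gy. Of 5 basement membrane collagens, 4 were lower with 5 Gy and 5 with 20 Gy (medians -1.54 and -1.91). Of 9 other collagens, 5 were lower with 5 Gy and 7 with 20 Gy (medians -0.78 and -0.75). Col9a2, Col22a1 and Col27a1 were called at 24 h with neither dose. The calls depended on which transcripts stand for a gene. With only the transcript of highest mean, the calls at 24 h ended for Col5a3, Col6a1, Col8a1 and Col18a1 with both doses and for Col1a2 and Col16a1 with 5 Gy, and those at 12 h ended for Col1a1 and Col18a1. Quantile normalization moved the median of all genes in the 20 Gy 24 h group from -0.14 to -0.03.

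**Figure D2:**
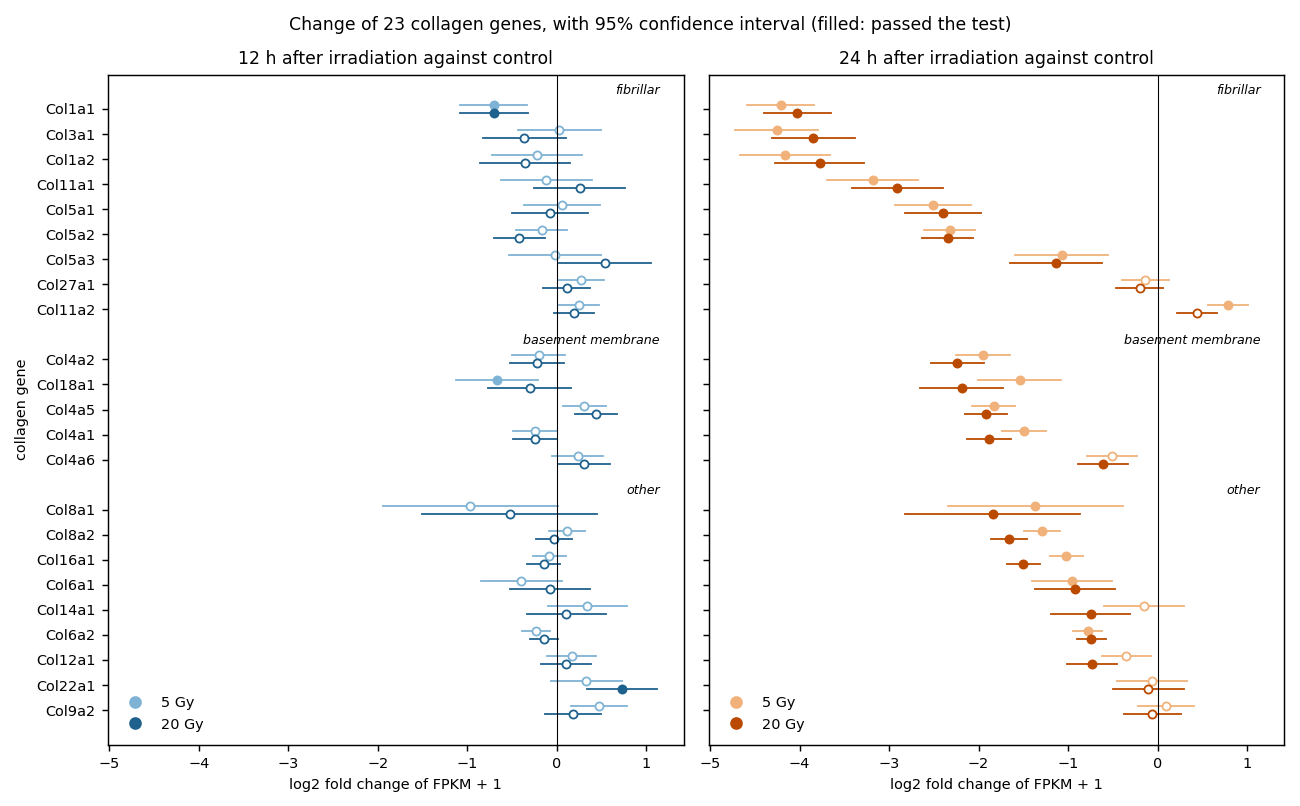
Log2 fold change of FPKM + 1 against control for 23 collagen genes by class, at 12 h (left) and 24 h (right) for 5 Gy and 20 Gy. Bars are 95% confidence intervals and filled points passed the test, 16 and 19 genes on the lower side at 24 h, with Col3a1, Col1a1 and Col1a2 near -4.

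Types III and I, the major fibril-forming collagens, had the highest levels of their class and the largest falls. Col3a1 (chromosome 9, 52023295 to 52059217, plus strand, Rnor_6.0, 1 transcript of 51 exons) encodes the single kind of chain of type III collagen, found in distensible tissues such as vessel walls. Its FPKM was 631, 548 and 425 in the 3 control libraries. The 5 Gy libraries held 489.7, 501 and 634 at 12 h, then 32.8, 23.5 and 24.5 at 24 h. For 20 Gy the values were 338, 404 and 506, then 48.2, 32.5 and 29.1. The 12 h libraries overlapped the controls, and all 24 h libraries lay below every control library. The mean level at 24 h was 19.9-fold lower with 5 Gy (log2 fold change -4.26 ± 0.21 SE, limma adjusted p = 9.46e-09) and 14.6-fold lower with 20 Gy (-3.85 ± 0.21, limma adjusted p = 2.1e-08). A separately named row of 141 bases inside this locus, not counted as Col3a1, had a mean of 837 FPKM in control and of 37.9 and 52.6 FPKM in the 24 h groups.

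Col1a1 (chromosome 10, 82745801 to 82762789, plus strand) encodes the alpha 1 chain of type I collagen, the most abundant collagen of the body. The control libraries had 535, 546 and 467 FPKM. The lower dose gave 367, 329 and 260.1 FPKM at 12 h, followed by 31.0, 24.4 and 25.7 at 24 h. The higher dose gave 333, 320.5 and 297 FPKM, followed by 42.0, 25.8 and 26.5. All 4 irradiated groups lay below every control library. Its log2 fold change was the largest collagen fall called at 12 h, both for 5 Gy (-0.70 ± 0.17 SE, limma adjusted p = 0.0131) and for 20 Gy (-0.70 ± 0.17, limma adjusted p = 0.0154). The level at 24 h was 19.1-fold and 16.4-fold lower (-4.21 ± 0.17 and -4.03 ± 0.17, limma adjusted p = 1.8e-09 and 2.41e-09). The 12 h call for 5 Gy ended without 5 Gy 12 h replicate 3 (-0.56, limma adjusted p = 0.0608). That for 20 Gy ended without control replicate 2 (-0.66, limma adjusted p = 0.0561) or 20 Gy 12 h replicate 3 (-0.66, limma adjusted p = 0.0586).

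Col1a2 (chromosome 4, 31533218 to 31569673, plus strand) encodes the alpha 2 chain, which joins paired alpha 1 chains in the usual type I trimer. In control it reached 407, 464 and 372 FPKM. The 5 Gy cultures had 368, 369.6 and 326 FPKM at the earlier time and 28.7, 18.6 and 19.9 at the later one. The 20 Gy cultures had 278, 348 and 343 at the earlier time and 42.5, 30.4 and 19.1 at the later one. The 24 h libraries lay far below every control library, and its log2 fold changes were -4.17 ± 0.23 SE and -3.78 ± 0.23 (limma adjusted p = 2.04e-08 and 4.51e-08). With only its transcript of highest mean, the 5 Gy call ended (-4.03, limma adjusted p = 0.0833). The 12 h changes of -0.22 and -0.36 did not pass the test (limma adjusted p = 0.562 and 0.335).

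The level of Col1a2 is uncertain because a second locus on chromosome 4 of Rnor_6.0 has the same structure. A transcript there, under the symbol NEWGENE_621351 (29529854 to 29564435), has 52 exons, 4119 bases and a span of 34582 bases, as does the annotated Col1a2 transcript at 31534225 to 31568806. How reads were divided between both could not be checked without a genome sequence. The second locus held 280.4 ± 56.3 FPKM in control and 12.98 ± 3.32 and 18.0 ± 7.62 FPKM in the 24 h groups. It took 31.1 to 49.1% of the sum of both loci over the 15 libraries. With both loci added, an alternative chosen after the values were seen, the log2 fold change at 24 h was -4.28 for 5 Gy and -3.87 for 20 Gy.

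A stretch of the RefSeq window before the Col1a2 start (GRCr8, chr4:33518307-33518396, plus strand) is printed because Col1a2 was the only collagen with TATAAA among the 17 windows available. Capitals mark TATAAA and ATTGG, the reverse complement of the CCAAT box. The stretch is the far end of the window, where TATAAA begins 170 bases and ATTGG 221 bases before the RefSeq start.
Col1a2: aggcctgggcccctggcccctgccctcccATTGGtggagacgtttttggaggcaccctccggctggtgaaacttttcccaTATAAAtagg

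The ratio of Col1a1 to Col1a2 FPKM was 1.18 to 1.31 in control. At 12 h it was 0.798 to 0.999 for 5 Gy and 0.865 to 1.20 for 20 Gy, and at 24 h 1.08 to 1.31 and 0.850 to 1.39, overlapping the controls. The 5 Gy 12 h libraries lay below the controls (exact two-sided permutation p = 0.1, the smallest that 3 against 3 can give, 0.267 after adjustment over 8 ratio comparisons). With the second locus added to Col1a2, the ratio was 0.715 to 0.776 in control, 0.432 to 0.586 and 0.514 to 0.610 at 12 h, and 0.684 to 0.852 and 0.585 to 0.817 at 24 h. Col1a1 FPKM was also divided differently between its 2 transcripts. An assembled transcript of 50 exons without a symbol took 12.1 to 17.8% of Col1a1 FPKM in control and 64.2 to 69.4% in the 20 Gy 24 h libraries. In the 5 Gy 24 h libraries it took 64.2, 8.66 and 76.4%, with 1 library below the controls and the others far above.

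**Figure D3:**
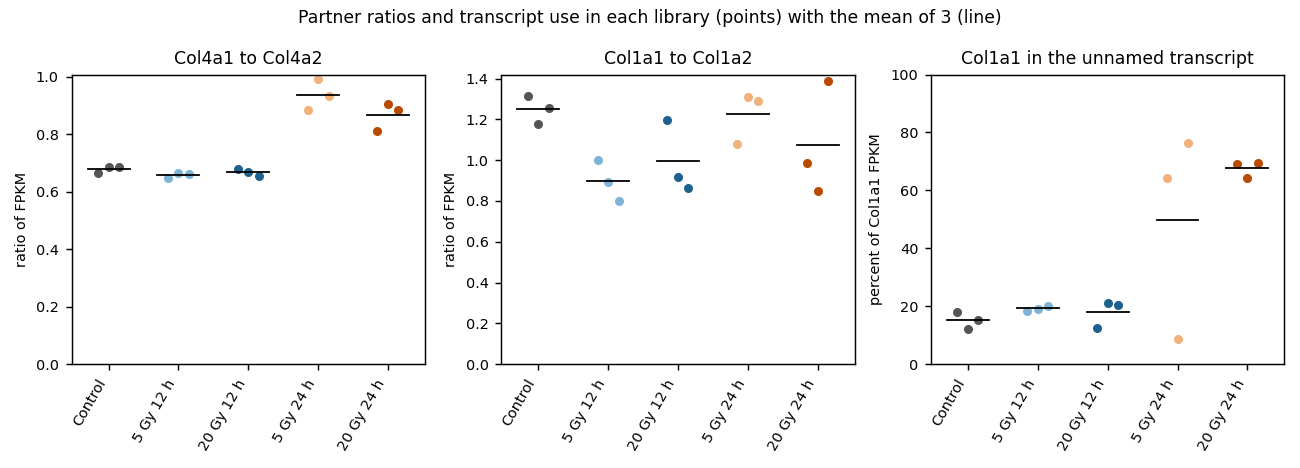
Ratio of Col4a1 to Col4a2 FPKM, ratio of Col1a1 to Col1a2 FPKM, and the percent of Col1a1 FPKM in the transcript without a symbol, by group. Points are libraries and lines means of 3. The type IV ratio was 0.664 to 0.687 in control and 0.883 to 0.991 and 0.812 to 0.904 at 24 h, and the type I ratio at 24 h overlapped the controls.

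Among the minor fibrillar collagens, which are built into the fibrils of major types, Col11a1 had the largest fall. Col11a1 encodes a chain of type XI collagen that takes part in starting fibrils. It went from 68.2 ± 0.938 FPKM in control (SD, n = 3) to 64.5 ± 16.8 and 82.5 ± 13.7 FPKM at 12 h, and to 6.71 ± 1.39 and 8.52 ± 2.85 FPKM at 24 h. The 24 h levels were 10.2-fold and 8-fold lower (-3.18 ± 0.23 SE and -2.91 ± 0.23, limma adjusted p = 1.97e-07 and 4.52e-07). Col5a1, a type V chain, went from 71.8 ± 9.32 FPKM to 11.7 ± 1.51 and 13.4 ± 4.98 FPKM at 24 h (log2 fold changes -2.51 and -2.39). Its partner Col5a2 went from 250.1 ± 7.80 FPKM to 49.5 ± 7.33 and 48.7 ± 7.14 FPKM (-2.32 and -2.35). Col5a3, the least abundant type V chain, had 1.93 ± 0.775 FPKM in control and 0.362 ± 0.0338 and 0.315 ± 0.198 FPKM at 24 h (-1.07 and -1.13). These 4 genes passed the test at 24 h with both doses, and their 24 h libraries lay below every control library.

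The window before the Col11a1 start (RefSeq, GRCr8, chr2:204508986-204509135, plus strand) is shown beside that of Col1a2. It lacks TATAAA, as did every collagen window available but that of Col1a2. Capitals mark GC boxes (GGGCGG) and ATTGG.
Col11a1: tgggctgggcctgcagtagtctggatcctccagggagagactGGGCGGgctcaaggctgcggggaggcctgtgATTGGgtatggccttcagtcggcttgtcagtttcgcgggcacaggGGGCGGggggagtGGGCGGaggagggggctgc

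Col11a2, the alpha 2 chain of type XI collagen, went the other way from a low level. Levels in control were 0.381, 0.246 and 0.286 FPKM. With 5 Gy they were 0.389, 0.556 and 0.722 (12 h) and 1.36, 1.31 and 1.07 (24 h). With 20 Gy they were 0.485, 0.458 and 0.516 (12 h) and 0.631, 0.785 and 0.885 (24 h). All irradiated libraries lay above every control library. It was the only collagen called higher at 24 h, with 5 Gy (0.78 ± 0.10 SE, limma adjusted p = 2.84e-05). For 20 Gy the log2 fold change was 0.44 ± 0.10 (limma adjusted p = 0.00277), short of the fold of 1.5. Col27a1, a fibrillar collagen best known from cartilage, had 0.768 ± 0.0965 FPKM in control and 0.609 ± 0.131 and 0.545 ± 0.186 FPKM at 24 h, with no call.

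In the basement membrane class, type IV genes lie in head-to-head pairs. Col4a1 and Col4a2 encode the chains of the common type IV trimer of capillaries. Col4a1 (chromosome 16, 83522162 to 83632153, plus strand) and Col4a2 (83386388 to 83522231, minus strand) overlap by 70 bases in the deposited table (Rnor_6.0). Counting by strand is not given in the sources used here, so reads in the overlap cannot be assigned to either gene. The 76 bases between their RefSeq starts (GRCr8, chr16:84885521-84885596, plus strand) are printed because both genes start beside them. Capitals mark a GC box in reverse complement.
between Col4a1 and Col4a2: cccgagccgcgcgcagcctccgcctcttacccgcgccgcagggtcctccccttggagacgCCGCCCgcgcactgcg

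Col4a1 lay below the controls in every 24 h library. Its FPKM was 105, 105 and 89.8 in the 3 control libraries. The 5 Gy libraries held 89.2, 90.6 and 73.1 at 12 h, then 35.8, 34.0 and 34.7 at 24 h. For 20 Gy the values were 86.6, 87.7 and 78.0, then 31.2, 23.0 and 25.3. Its log2 fold changes at 24 h were -1.49 ± 0.11 SE and -1.88 ± 0.11 (limma adjusted p = 2.7e-07 and 4.18e-08). Col4a2 likewise lay below the controls in every 24 h library. The control libraries had 158, 153 and 131 FPKM. The lower dose gave 137, 136 and 111 FPKM at 12 h, followed by 40.5, 34.3 and 37.1 at 24 h. The higher dose gave 128, 131 and 119 FPKM, followed by 38.4, 25.4 and 28.6. Its changes at 24 h were -1.95 ± 0.14 SE and -2.24 ± 0.14 (limma adjusted p = 1.38e-07 and 4.65e-08). Neither passed the test at 12 h, with log2 fold changes of -0.25 and -0.24 for Col4a1 and -0.20 and -0.22 for Col4a2.

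The ratio of Col4a1 to Col4a2 was 0.679 ± 0.013 in control (SD, n = 3), 0.658 ± 0.00803 and 0.668 ± 0.0114 at 12 h, and 0.936 ± 0.0539 and 0.867 ± 0.0485 at 24 h (5 Gy and 20 Gy). All 24 h libraries lay above all control libraries. Both comparisons gave the smallest exact permutation p that 3 against 3 allows (two-sided p = 0.1, 0.267 after adjustment over 8 ratio comparisons). All Col4a2 FPKM lay in transcripts without a symbol, and all Col4a1 FPKM in 1 transcript with its symbol.

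Col4a5 and Col4a6, the X-linked pair, encode type IV chains known from kidney and smooth muscle. Col4a5 reached 10.6, 11.4 and 11.1 FPKM in control. The 5 Gy cultures had 15.7, 15.1 and 11.4 FPKM at the earlier time and 2.26, 2.49 and 2.40 at the later one. The 20 Gy cultures had 16.3, 15.8 and 14.0 at the earlier time and 2.03, 2.20 and 2.36 at the later one. The 12 h libraries of Col4a5 lay above every control library and its 24 h libraries below. The log2 fold changes at 12 h were 0.31 ± 0.11 SE (limma adjusted p = 0.068) and 0.44 ± 0.11 (limma adjusted p = 0.0157, under the fold of 1.5). At 24 h they were -1.83 ± 0.11 and -1.91 ± 0.11 (limma adjusted p = 3.44e-08 and 2.4e-08). The fall lay in an assembled transcript of 51 exons without a symbol, with means of 10.97 FPKM in control and 0 and 1.06 FPKM at 24 h (5 Gy and 20 Gy). The transcript of 53 exons that carries the symbol spans nearly the same bases and had 0.0713 FPKM in control and 2.38 and 0.675 FPKM. With that transcript alone the direction turned, to a called 1.66 with 5 Gy (limma adjusted p = 0.00185) and to 0.43 with 20 Gy, which was not called (limma adjusted p = 0.343). Col4a6 had 0.990 ± 0.160 FPKM in control, 1.37 ± 0.480 and 1.46 ± 0.0463 FPKM at 12 h, and 0.395 ± 0.0547 and 0.302 ± 0.0254 FPKM at 24 h. It was called in the 20 Gy 24 h group (-0.61 ± 0.13 SE, limma adjusted p = 0.00141), a call that ended without control replicate 2 (-0.55, under the fold) and with quantile normalization (-0.41, under the fold). For 5 Gy at 24 h the value was -0.51.

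Col18a1 encodes type XVIII collagen. Levels in control were 149, 139 and 147 FPKM. With 5 Gy they were 121, 91.9 and 67.8 (12 h) and 40.3, 55.3 and 53.4 (24 h). With 20 Gy they were 140.0, 128 and 90.2 (12 h) and 25.7, 31.5 and 36.9 (24 h). The 5 Gy 12 h libraries lay below every control library, and 1 of the 20 Gy 12 h libraries reached the control range. Its log2 fold change in the 5 Gy 12 h group was -0.67 ± 0.21 SE (limma adjusted p = 0.0449). That call ended when any 1 of 5 libraries was left out, namely control replicate 1 (-0.65), 2 (-0.70) or 3 (-0.66), or 5 Gy 12 h replicate 2 (-0.68) or 3 (-0.46). At 24 h the changes were -1.54 ± 0.21 and -2.19 ± 0.21 (limma adjusted p = 4.2e-05 and 2.23e-06). Its FPKM lay wholly in transcripts without a symbol.

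In the class of other collagens, the type VI chains had smaller log2 fold changes at 24 h than those of type VIII, a difference that was not tested. Col6a1 showed 1 low library in each 24 h group. Its FPKM was 252, 275 and 245 in the 3 control libraries. The 5 Gy libraries held 191, 199 and 196 at 12 h, then 90.3, 159.6 and 159 at 24 h. For 20 Gy the values were 249, 261 and 220.3, then 100.3, 161 and 152. In these low libraries, replicate 1 of each 24 h group, 99.97% of Col6a1 FPKM lay in transcripts without a symbol, against 24.7 to 33.4% in the other 24 h libraries. The fall at 24 h was 1.89-fold and 1.86-fold (-0.96 ± 0.21 SE and -0.92 ± 0.21, limma adjusted p = 0.00147 and 0.00193). Col6a2, its partner, was even among replicates at 24 h. The control libraries had 197, 202 and 172 FPKM. The lower dose gave 164, 155 and 167 FPKM at 12 h, followed by 108, 109 and 113 at 24 h. The higher dose gave 175, 177 and 165 FPKM, followed by 109.9, 109 and 121. Its changes at 24 h were -0.78 ± 0.07 SE and -0.74 ± 0.07 (limma adjusted p = 1.51e-06 and 2.6e-06), and came under the fold with quantile normalization (-0.53 and -0.52). Col6a3, which encodes another chain of the common type VI trimer, was not analysed here.

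Type VIII collagen forms hexagonal networks under endothelium and in remodelling vessels. Col8a2 reached 233, 234 and 184 FPKM in control. The 5 Gy cultures had 217, 234 and 249 FPKM at the earlier time and 86.7, 88.2 and 87.4 at the later one. The 20 Gy cultures had 204, 222 and 209.6 at the earlier time and 70.8, 68.5 and 63.1 at the later one. The 24 h libraries of Col8a2 lay below every control library, and its log2 fold changes there were -1.29 ± 0.09 SE and -1.66 ± 0.09 (limma adjusted p = 1.54e-07 and 2.06e-08). In the rows that carry its symbol, which held under 3% of its FPKM, the 5 Gy 24 h value was 0.21 and not called. Its partner Col8a1 varied widely among replicates, with low values in replicate 3 of both 12 h groups. Levels in control were 131, 156 and 160.2 FPKM. With 5 Gy they were 134, 85.4 and 37.2 (12 h) and 40.8, 52.7 and 85.3 (24 h). With 20 Gy they were 164, 104 and 63.5 (12 h) and 26.2, 49.2 and 52.1 (24 h). Its log2 fold change in the 5 Gy 24 h group was -1.37 ± 0.45 SE (limma adjusted p = 0.019). That call ended without control replicate 3 (-1.31), 5 Gy 24 h replicate 1 (-1.13) or 5 Gy 24 h replicate 2 (-1.31). For 20 Gy it was -1.84 ± 0.45 (limma adjusted p = 0.0035).

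The window before the Col8a2 start (RefSeq, GRCr8, chr5:143870619-143870768, plus strand) is shown for its run of GC boxes. Capitals mark GGGCGG on either strand.
Col8a2: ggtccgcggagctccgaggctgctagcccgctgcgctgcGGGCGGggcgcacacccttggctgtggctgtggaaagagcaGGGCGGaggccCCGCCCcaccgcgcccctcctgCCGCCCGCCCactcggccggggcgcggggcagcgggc

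Collagens that associate with fibril surfaces were at low to middle levels. Col16a1 had the largest fall of them, from 33.3 ± 2.81 FPKM in control to 15.8 ± 0.754 and 11.1 ± 1.16 FPKM at 24 h (-1.02 ± 0.09 SE and -1.50 ± 0.09, limma adjusted p = 5.33e-07 and 2.31e-08). Col12a1 and Col14a1 passed the test at 24 h with 20 Gy (-0.73 and -0.75), and had log2 fold changes of -0.35 and -0.15 with 5 Gy. In transcripts that carry its symbol, Col12a1 turned to 0.10 with 20 Gy and was not called (limma adjusted p = 0.736). Col9a2, a chain of a cartilage collagen, had 6.48 ± 1.31 FPKM in control and 6.91 ± 0.534 and 6.15 ± 0.986 FPKM at 24 h. Col22a1, a collagen of tissue junctions, was the only collagen called higher at 12 h. Its FPKM was 0.653, 0.783 and 0.435 in the 3 control libraries. The 5 Gy libraries held 1.38, 1.49 and 0.423 at 12 h, then 0.444, 0.630 and 0.585 at 24 h. For 20 Gy the values were 1.76, 1.85 and 1.45, then 0.384, 0.648 and 0.499. The 20 Gy 12 h libraries lay above every control library, while the 5 Gy 12 h libraries overlapped them. Its log2 fold change in the 20 Gy 12 h group was 0.73 ± 0.18 SE (limma adjusted p = 0.016). The call ended without control replicate 3 (0.64, limma adjusted p = 0.0664) or 20 Gy 12 h replicate 2 (0.69, limma adjusted p = 0.0551).

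**Figure D4:**
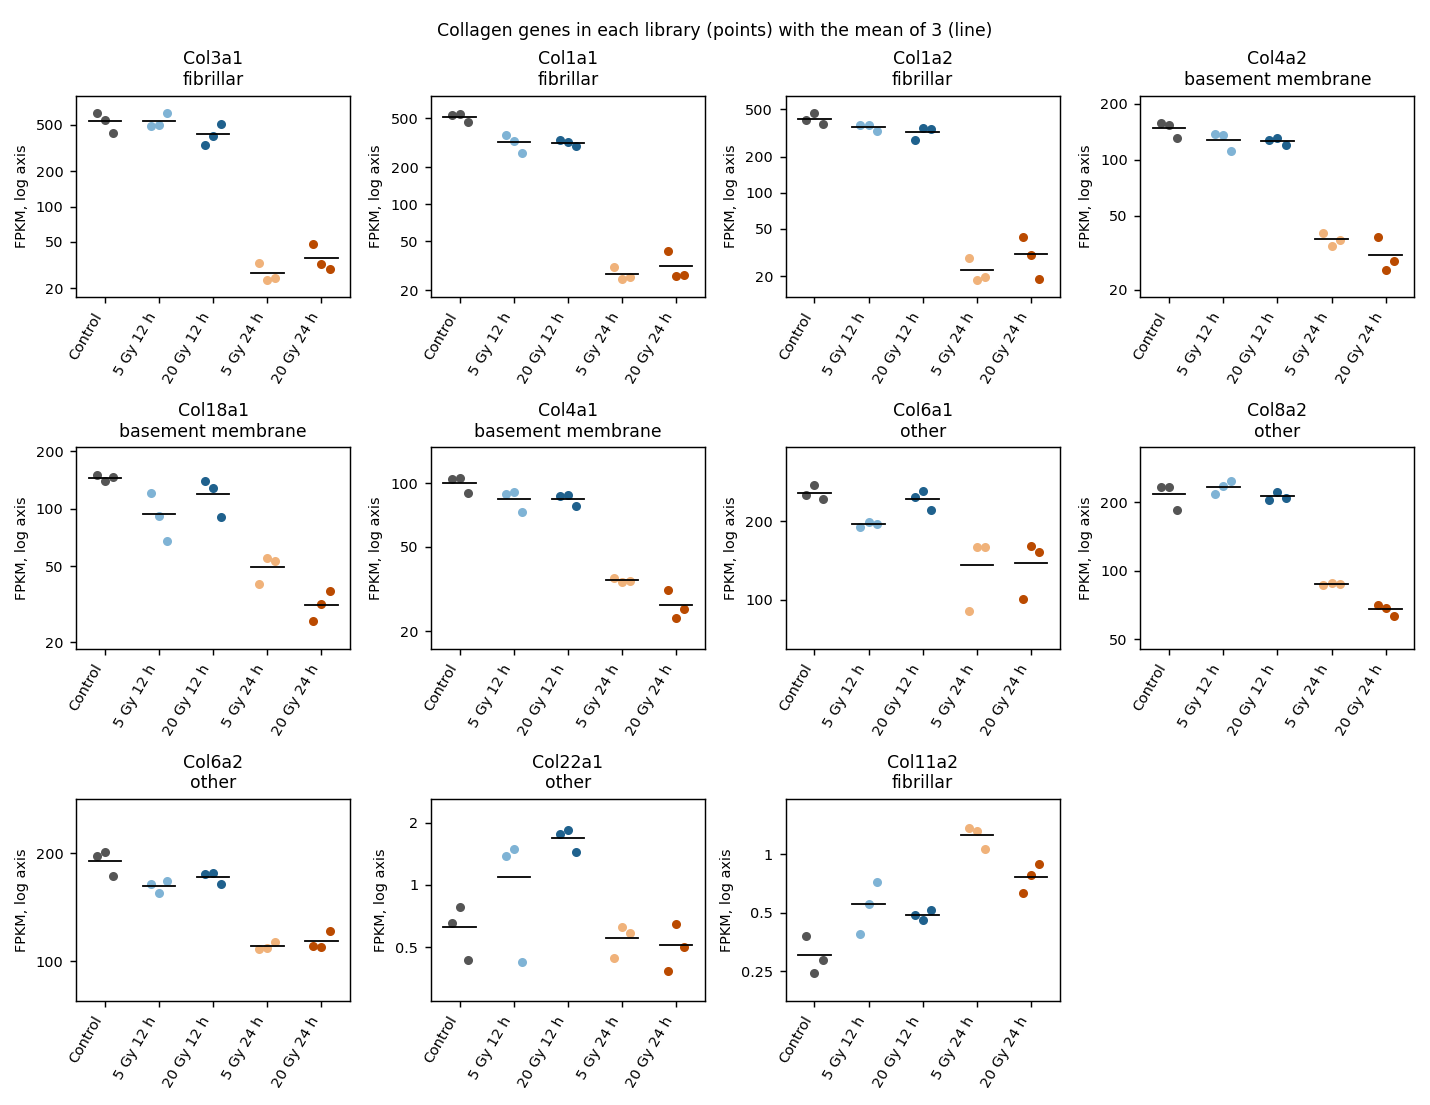
FPKM (log axis) of the 3 highest collagens of each class and of Col22a1 and Col11a2, by group. Points are libraries and lines means of 3. Col3a1 drops from a range of 425 to 631 FPKM in control to 23.5 to 48.2 FPKM at 24 h, and Col11a2 lies above the controls in all irradiated groups.

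Between times at 1 dose, a comparison that uses no control library, 14 of 23 collagens were lower at 24 h than at 12 h with 5 Gy (background 19.3% of all genes lower) and 20 of 23 with 20 Gy (22.1%). None was called higher, beside 3056 (5 Gy) and 2526 (20 Gy) of all 17895 genes tested. Col11a2 had log2 values of 0.53 and 0.25 (limma adjusted p = 0.000759 and 0.0588), both under the fold of 1.5. Col3a1 had the largest fall, at -4.29 ± 0.21 SE and -3.48 ± 0.21 (limma adjusted p = 1.18e-08 and 6.17e-08). All 5 basement membrane collagens and 7 of 9 fibrillar collagens were lower with either dose. Of the 9 others, 2 were lower with 5 Gy and 8 with 20 Gy. Col22a1 fell after its 12 h level, at -0.83 ± 0.18 with 20 Gy (limma adjusted p = 0.00184). Some 20 Gy calls ended when 1 library was left out. That of Col6a2 was near the fold limit, and its limma adjusted p was 0.000129 to 0.000188 where the call ended. Col6a2 (-0.60) lost the fold of 1.5 when any of 4 libraries was left out, with values of -0.58 to -0.57, namely 20 Gy 12 h replicate 1 and 20 Gy 12 h replicate 2 and 20 Gy 24 h replicate 1 and 20 Gy 24 h replicate 2. Col8a1 (-1.32) was not called without 20 Gy 12 h replicate 1 (-0.98), 20 Gy 12 h replicate 2 (-1.31) or 20 Gy 24 h replicate 1 (-1.01).

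Between doses, limma called 0 of 23 collagens at 12 h (background 0.123% of all genes) and 0 at 24 h (2.42%). It called 0 in the dose difference of the change from 12 h to 24 h (0.52%). At an unadjusted p under 0.05 without a fold limit the counts were 2, 7 and 4. The backgrounds above do not apply to these counts, and the shares of all genes at this looser threshold were not counted. Col16a1 at 24 h passed the adjusted p but not the fold, lower with 20 Gy than with 5 Gy (-0.48 ± 0.09 SE, limma adjusted p = 0.00862), as did Col8a2 (-0.37 ± 0.09, limma adjusted p = 0.0415). The largest dose difference at 24 h was that of Col18a1 (-0.65, 95% interval -1.11 to -0.19, limma adjusted p = 0.107). That of Col1a1 (0.18, 95% interval -0.19 to 0.56) and that of Col3a1 (0.41, 95% interval -0.05 to 0.88) had intervals that include 0. The intervals of Col12a1 (-0.38, 95% interval -0.66 to -0.10) and Col14a1 (-0.60, 95% interval -1.04 to -0.15) did not, but neither passed the adjusted p (limma adjusted p = 0.114 and 0.123).

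Genes that process or bind collagen were counted in 6 lists. Their shares called at 24 h stand beside 20.5% higher and 20.8% lower among all genes with 5 Gy, and 17% higher and 23.3% lower with 20 Gy. Of 14 tested genes for folding and modifying collagen chains, 2 were lower in the 5 Gy 24 h group, and 1 was higher and 3 were lower in the 20 Gy 24 h group. The shares lower, 14.3% and 21.4%, were below those of all genes. P3h4, part of a lysyl hydroxylase complex, had the largest fall, from 42.8 ± 1.92 FPKM in control to 22.2 ± 2.57 and 15.3 ± 2.82 FPKM (-0.92 ± 0.18 SE and -1.44 ± 0.18, limma adjusted p = 0.000595 and 1.62e-05). P4ha1, a prolyl hydroxylase subunit, rose with 20 Gy (0.71 ± 0.11, limma adjusted p = 8.62e-05). Serpinh1, the collagen chaperone HSP47, is named though outside the rule and was chosen after its values were seen. It had 365 ± 34.8 FPKM in control and 509 ± 65.7 and 484 ± 119 FPKM at 24 h, with log2 fold changes of 0.47 and 0.38 that were not called.

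Of 11 genes for export and propeptide cleavage, 2 were higher and 2 lower in the 5 Gy 24 h group, and 3 higher and 2 lower in the 20 Gy 24 h group. This gave 18.2% lower with either dose, below the share of all genes, and 18.2% and 27.3% higher. Adamts3, a procollagen N-proteinase, rose from 1.51 ± 0.264 FPKM to 18.7 ± 3.51 and 18.0 ± 4.64 FPKM (2.96 ± 0.19 SE and 2.90 ± 0.19, limma adjusted p = 5.34e-08 and 6.54e-08). Pcolce, an enhancer of C-propeptide cleavage, had the largest fall of the list (-0.94 ± 0.18 and -1.13 ± 0.18). Of 6 tested crosslinking genes, 1 was higher (16.7%) and 3 were lower (50%) with either dose. Loxl4, a lysyl oxidase, rose (0.72 and 1.01), and Pxdn, the peroxidase that links type IV collagen by sulfilimine bonds, had the largest fall (-0.94 and -1.33).

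Of 6 tested collagen receptors and uptake genes, 1 was higher and 3 lower with 5 Gy at 24 h, and 2 higher and 3 lower with 20 Gy (50% lower with either dose). Ddr1, a receptor tyrosine kinase for collagen, rose from 57.1 ± 5.39 FPKM to 129 ± 3.35 and 108 ± 6.19 FPKM (1.17 ± 0.10 SE and 0.91 ± 0.10, limma adjusted p = 5.17e-07 and 4.88e-06). The largest falls were those of Itga10, a collagen-binding integrin chain, with 5 Gy (-1.07) and of Mrc2, a receptor that takes up collagen, with 20 Gy (-1.49). Of 9 tested fibril partners, 1 was higher and 3 lower with 5 Gy, and 0 were higher and 5 lower with 20 Gy (33.3% and 55.6% lower). Lum, a fibril-spacing proteoglycan that is also on the fibroblast marker list, had the largest falls (-1.43 ± 0.35 and -1.76 ± 0.35), and Thbs1, a matricellular protein, rose with 5 Gy (1.02 ± 0.28, limma adjusted p = 0.00642).

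Of 9 other basement membrane genes tested, 1 was higher and 5 lower with 5 Gy at 24 h, and 1 higher and 8 lower with 20 Gy (55.6% and 88.9% lower). Nid2, which links laminin to type IV collagen, had the largest falls (-1.43 ± 0.24 SE and -1.78 ± 0.24, limma adjusted p = 0.000231 and 3.88e-05). Lama5, a laminin chain of mature vessels, rose from 1.12 ± 0.0641 FPKM to 5.30 ± 0.207 and 5.35 ± 1.36 FPKM (1.57 ± 0.15 and 1.56 ± 0.15). At 12 h Lama5 was already higher (0.86 and 1.18) and Nid2 lower (-1.26 and -0.90), and both passed the test with either dose. Agrn was also called higher at 12 h, and then lower at 24 h, with either dose. It had 12.1 ± 1.53 FPKM in control, 18.9 ± 2.22 and 18.8 ± 2.51 FPKM at 12 h, and 6.05 ± 0.349 and 5.05 ± 0.942 FPKM at 24 h. Both 12 h calls of Nid2 ended with only the transcripts that carry the symbol, and with only the transcript of highest mean. The 20 Gy 12 h call of Nid2 ended without control replicate 2 (-0.86) or 3 (-0.87), without 20 Gy 12 h replicate 2 (-0.89) or 3 (-0.67), and with the compared groups only (-0.90). Some directions in these lists depended on the transcripts summed. In transcripts that carry the symbol, the 24 h values (5 Gy and 20 Gy) were 1.97 and 1.41 for Mrc2, 1.01 and 0.55 for Pxdn and -0.15 and 0.037 for Nid2, with no call. In the transcript of highest mean, those of Ddr1 were 0.46 and -0.018, also not called. With only the transcripts that carry the symbol, further 24 h calls ended without a change of direction. These were those of P4ha1 with 20 Gy and of Loxl4, P3h4 and Thbs1 with 5 Gy. The P4ha1 call also ended with the transcript of highest mean. The medians of the 6 lists at 24 h lay between -0.09 and -0.65 with 5 Gy and between -0.17 and -0.87 with 20 Gy on the log2 scale, beside -1.29 and -1.66 for the collagens.

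The genes closest in pattern to 3 collagens were ranked by Pearson r of log2(FPKM + 1) over the 15 libraries, among 9554 genes with a mean of at least 5 FPKM. The libraries share groups, so these values are a description. For Col1a1 the first 2 genes were listed as AY172581.17 and AY172581.16 (r = 0.992 for both), followed by Emc6 (0.991), Maged2 (0.991) and Col1a2 (0.991). For Col3a1 they were the row inside its own locus (0.999), Lyrm2 (0.995), the second Col1a2-like locus (0.995), Col1a2 (0.994) and Col5a2 (0.993), which lies 33293 bases away on chromosome 9. For Col4a1 they were Col4a2 (0.996), Col16a1 (0.987), Srebf2 (0.986), a locus without a symbol (0.983) and Arl2bp (0.983).

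RefSeq windows of 250 bases before the start (GRCr8) were matched for 17 of the 23 collagens, all but Col1a1, Col3a1, Col6a2, Col12a1, Col14a1 and Col22a1. Searched on both strands, GGGCGG (the GC box) was in 13 of 17 collagen windows and in 30.5% of all 33469 windows. CCAAT was in 5 of 17 (34.0% of all), TATAAA in 1 (12.9%), TGANTCA (the AP-1 motif) in 1 (6.34%) and CAGAC (a Smad motif) in 7 (42.9%). Collagen windows ranged from 44.8 to 75.2% G and C, beside 51.2% over all windows. A match is a match of letters only.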

How the data were processed

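RNA of 15 BMEC cultures was sequenced. Per the submitters' processing notes and the methods, the authors trimmed reads with Trimmomatic, checked them with FastQC, aligned them to Rnor_6.0 with HISAT2 2.0.13, sorted them with samtools 1.9, and assembled and quantified transcripts with StringTie 1.3.5. The authors deposited FPKM for 85322 transcripts, with no counts. FPKM were summed per gene here, leaving out 4738 transcripts that could not be assigned to 1 gene. limma 3.58.1 (R 4.3.3) was run on log2(FPKM + 1) of 17895 gene sums with a mean of at least 0.5, with a mean-variance trend, the 5 groups in 1 model and Benjamini-Hochberg adjustment. The fit was tested on simulated data. Sums and exact permutation tests used Python 3.11.15 with pandas 2.3.3. From the steps of FPKM in transcripts of at most 400 bases (78.9 to 83.3% whole multiples within 0.1), depth was estimated at 5.44 to 7.49 gigabases per library. Replicates correlated at 0.963 to 0.975. Every library's value is given for the 3 highest collagens of each class and for the called collagen with the largest rise and fall against control in each group. Partners in a trimer and ends of ranges are also named, as are the largest rise and fall of each gene list 24 h after each dose. Members and lists were chosen with earlier results of these data known. Alternatives covered the pseudocount, filters, scaling, samples in the fit, trend, replicate block, thresholds, rows summed and each library left out.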

Additional observations from a re-analysis of the deposited data

Results flagged for a closer look

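Libraries of Col4a5 and Col4a6 lay on opposite sides of the controls at the early and late times, which is why they are listed here. The 12 h changes against control were not called for either gene. Every Col4a5 library lay above all controls at 12 h and below all of them at 24 h, and limma gave a log2 fold change between the times of -2.14 for 5 Gy and -2.36 for 20 Gy (limma adjusted p = 1.39e-08 and 5.28e-09). The direction depended on the transcripts summed, since in the transcript that carries the symbol the values were 1.56 for 5 Gy (limma adjusted p = 0.00341, called) and 0.34 for 20 Gy (limma adjusted p = 0.486, not called). Its neighbour Col4a6, 1340 bases away on chromosome X in Rnor_6.0, showed the same placement of libraries for 20 Gy, at -0.92 (limma adjusted p = 7.08e-05). The mural marker sum was also lower at 24 h than at 12 h, and its part in these results was not tested. Groups of 3 were too small to check for single outlying libraries.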

How the results depend on the processing

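The collagen counts at 24 h depended mainly on which rows stand for a gene, since genes such as Col1a2, Col4a2, Col8a2 and Col18a1 lie almost wholly in assembled transcripts without a symbol. With named rows only, the counts called were 0 (5 Gy 12 h), 0 (20 Gy 12 h), 10 (5 Gy 24 h), 8 (20 Gy 24 h), 7 (24 h against 12 h, 5 Gy) and 7 (24 h against 12 h, 20 Gy), in place of 2, 2, 17, 19, 14 and 20, with 17 collagens tested. With only the row of highest mean, the counts were 0, 1, 11, 15, 12 and 16 in the same order, with 23 collagens tested. In named rows, Col4a5 reversed at 24 h to 1.66 (5 Gy, called) and 0.43 (20 Gy) against control and to 1.56 (called) and 0.34 against 12 h. Col8a2 reversed to 0.21 and 0.16 with 5 Gy and Col12a1 to 0.10 and 0.070 with 20 Gy, against control and 12 h, none called. Also reversed against control and not called were Mrc2 (1.97 and 1.41, also with the row of highest mean), Pxdn (1.01 and 0.55) and, with 20 Gy, Nid2 (0.037, and 0.27 in the row of highest mean) and Ddr1 (-0.018 in the row of highest mean). For 5 Gy at 12 h the counts were 0 at a fold of 2 and 1 without a filter, with quantile normalization, with TPM rescaling, with the replicate block or with the compared groups only, and 1 to 2 when single libraries were left out. Without 5 Gy 12 h replicate 3, the calls of Col1a1 and Col18a1 both ended and Col22a1 was called instead. For 20 Gy at 12 h the counts were 0 at a fold of 2, 1 at a mean of at least 1 FPKM, and 1 to 2 when single libraries were left out. Without 20 Gy 12 h replicate 3, Col5a3 was called in place of Col1a1. With an unadjusted p under 0.05 and the fold of 1.5 kept, 2 collagens were called between doses at 24 h and 2 in the dose difference of change. Deviations from the group means had a median correlation of 0.0088 between libraries with the same replicate number and of 0.0063 with different numbers. Above 0.1 were 4 of 30 pairs with the same number and 9 of 60 with different numbers. Yet 9 of 15 libraries correlated best with their own number, so these values do not settle whether the numbers pair the libraries. Beside the 1 call lost with the block 12 h after 5 Gy, the block left the other 8 counts as they were. Left-out libraries moved the other counts within 16 to 17 (5 Gy 24 h), 18 to 19 (20 Gy 24 h), 14 to 17 and 18 to 20 (24 h against 12 h). Over all genes, quantile normalization moved the higher share of calls from 38.9% to 49.8% (24 h against 12 h, 20 Gy), from 39.5% to 56.9% (doses at 24 h) and from 47.3% to 62.2% (dose difference of change), and TPM rescaling moved the last to 35%.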
